A study of Mus musculus with 4 samples.

Results

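The genes described here encode proteins of small nucleolar ribonucleoproteins (snoRNPs) and of the nucleolus: Nop58, Nop56, Fbl, Nop10, Gar1, Nhp2, Ncl, Npm1 and Nolc1. They are 9 of 21900 protein-coding genes in the RefSeq gene table of GRCm38.p6, and a peak was counted for a gene when its midpoint lay in the gene body. By that rule they held 128 of the 59563 peaks in the deposited list. The peaks mark where RNA was crosslinked to DHX9, an RNA helicase that unwinds RNA duplexes, in WT26 cells, a male mouse embryonic stem (ES) cell line of the strain C57BL/6x129sV that grows without feeder cells. RNA was taken by FLASH, a form of CLIP-seq in which protein and RNA are crosslinked by ultraviolet light and pulled down with an antibody, from 2 samples with rabbit anti-DHX9 and from 2 control samples with rabbit IgG, replicates A and B of each.

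The authors deposited 1 peak list for the series, which gives the position and strand of each peak and leaves the score field empty. It holds no value per replicate and none for the IgG pulldowns alone, the depth behind a peak is unknown, and the list does not say how IgG entered the calling. No error between pulldowns can therefore be given, no test across samples could be made, and every interval below covers counting error only. The list also holds no amount of RNA per gene, so more RNA and more DHX9 on each RNA cannot be told apart. As a check of the labelled cell type, the ES cell genes Pou5f1, Nanog, Sox2, Esrrb and Tdh held 12, 13, 6, 64 and 38 peaks and Dppa5a held none. The fibroblast genes Col1a1, Col1a2, Col3a1, Thy1 and Postn held none.

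Small nucleolar RNAs guide the chemical modification of ribosomal RNA and fall into 2 classes. Box C/D snoRNAs direct ribose methylation and assemble with Nop58, Nop56, the methyltransferase fibrillarin (Fbl) and Snu13. Box H/ACA snoRNAs direct pseudouridylation and assemble with Nop10, Gar1, Nhp2 and the pseudouridine synthase dyskerin (Dkc1). In mammals most snoRNAs are cut out of introns of host genes, and several of those hosts themselves encode proteins of the nucleolus or of the ribosome. Nucleolin (Ncl) and nucleophosmin (Npm1) are abundant nucleolar proteins that act in ribosome assembly, and Nolc1, also known as Nopp140, is a snoRNP chaperone.

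Of the 9 genes, 8 held at least 1 peak. Over all protein-coding genes the share with a peak was 22.8% (4989 of 21900). At least 3 peaks were found in 7 of the 9, against 14.8% of all protein-coding genes. The 9 genes had a median of 8 peaks, and the median over all protein-coding genes was 0. Among the 8 genes with a peak the median was 9.5 peaks and 1.00 peak per kb, and among the 4989 protein-coding genes with a peak it was 5 peaks and 0.176 per kb. The 8 genes were thus denser in peaks than the median bound gene. Length differed too: the 9 genes had a median length of 9.7 kb, and all protein-coding genes, bound or not, 17.1 kb. No median length was taken for the bound genes alone, so the length difference behind the density comparison is not given. Each of the 8 lay above the median density of bound genes of any length, as the plot of peak density by gene shows. Among bound genes of 0.5 to 2 times the same length, however, Gar1 lay below the median number of peaks (2 against 3) and Nhp2 was at it (3).

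**Figure D1:**
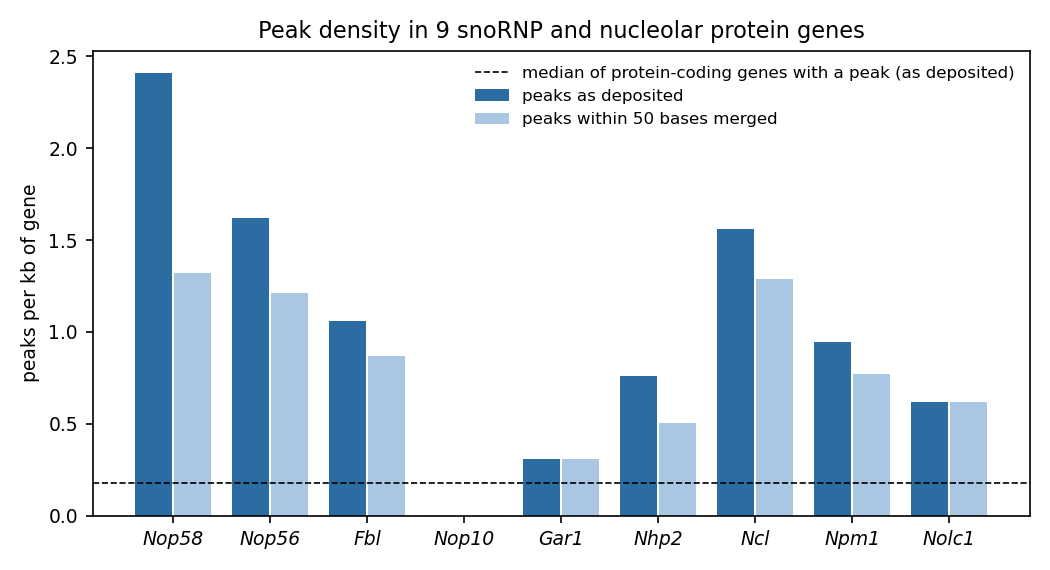
Peaks per kb of gene body for the 9 genes (vertical axis), counted as deposited (dark bars) and after merging peaks of 1 strand within 50 bases (light bars); the dashed line is the median of 0.176 per kb over protein-coding genes with a peak. Nop58 stands highest as deposited at 2.41 per kb and is close to Ncl (1.29) and Nop56 (1.21) after merging, at 1.32 per kb.

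The first set of sequences is shown because it comes from an RNA inside one of these genes that lay wholly under a peak, and because it carries letters known from box C/D snoRNAs. RefSeq places the gene Gm24148, also named mir-3535 and classed as a miRNA, inside Ncl on chr1:86351981-86352127 (GRCm38.p6, minus strand, the strand of Ncl). A peak of 384 bases covered its 147 bases completely, and a peak midpoint lay inside it. In the hairpin the capitals mark every UGAUGA, the core letters of a C box, and every CUGA, the letters of a D box, on the RNA strand, with overlapping matches joined. In the mature miRNA the capitals mark the seed, bases 2 to 8.
Gm24148 hairpin: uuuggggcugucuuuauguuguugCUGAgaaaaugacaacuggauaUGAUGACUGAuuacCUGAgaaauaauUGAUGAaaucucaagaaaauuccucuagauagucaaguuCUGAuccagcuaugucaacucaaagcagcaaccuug
mmu-miR-3535: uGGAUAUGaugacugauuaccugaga
UGAUGA stood in the hairpin 2 times and CUGA 4 times. Of the 1005 miRNA hairpins in the RefSeq table, 27 (2.69%) held UGAUGA and 5 (0.498%) held UGAUGA followed further on by CUGA. No other of the 1738 mature miRNAs in the table shared the seed of mmu-miR-3535. These matches describe letters, and whether this RNA is made or processed as a miRNA or as a snoRNA cannot be read from a peak list.

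The second sequence is shown because Nop58 held the most peaks of the 9 genes and its first peak reached across an annotated start site. Of the 9 genes, 7 matched the RefSeq table of promoters, which gives 250 bases before to 50 bases after a start. A peak on the gene strand overlapped the window of 1 of these 7, Nop58. The same held for 6.89% of the 4051 protein-coding genes with a peak and a window. The Nop58 sequence below is chr1:59684756-59685035 (plus strand), 250 bases before and 30 bases after the start in the promoter table, and the capitals mark the 46 bases under the peak, of which 16 lie before this start. The gene table begins Nop58 45 bases earlier, so the whole peak lies inside the gene body, from 29 bases after its first base.
Nop58 promoter: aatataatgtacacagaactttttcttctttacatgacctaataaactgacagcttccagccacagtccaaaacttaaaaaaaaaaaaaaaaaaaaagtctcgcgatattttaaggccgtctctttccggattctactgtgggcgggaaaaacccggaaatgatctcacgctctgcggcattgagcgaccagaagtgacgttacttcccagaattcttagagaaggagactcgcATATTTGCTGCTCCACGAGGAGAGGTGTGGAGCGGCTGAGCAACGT
The next nearest was Nhp2, where a peak began 3 bases after the window, then Ncl at 27 bases and Nolc1 at 235 bases. In Nop56, Gar1 and Nop10 the first gene-strand peak after the window began 1007, 1026 and 1923 bases beyond it. The letters CCGGAA, the core of the sites of ETS transcription factors, were found on either strand in 4 of the 7 windows (Nop58, Gar1, Nhp2 and Nolc1) and in 15.2% of the first windows of all 27025 genes. The GC box letters GGGCGG were found on either strand in 5 of the 7 (Nop58, Nop56, Nhp2, Ncl and Nolc1) and in 35.9% of the 27025. Unlike the 7, the 27025 include genes that do not code for protein, so these shares do not compare like genes. A match is no evidence that a factor binds there.

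The 3 genes for core proteins of box C/D snoRNPs held 83 of the 128 peaks, in 41.9 kb of gene. Peaks covered 49.1% of their bases. Nop58, which binds the C/D guide RNA within the snoRNP, had 64 peaks over 26.6 kb of chromosome 1 (59684961 to 59711510, plus strand), or 2.41 per kb. Peaks covered 63% of the gene, against a median of 3.18% over bound protein-coding genes. By number of peaks it ranked 119th of 21900 protein-coding genes, and 23rd among the 7780 between 0.5 and 2 times its length, of which 30.6% held a peak. By density it ranked 18th among the 2544 protein-coding genes with at least 5 peaks.

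The peaks of Nop58 followed each other closely. The median gap between neighbours was 53 bases, and 29 of 63 gaps were at most 50 bases, so that merging peaks within 50 bases left 35. Widths ran from 89 to 678 bases with a median of 232. In 5 equal sections of the gene, read along its strand, lay 18, 13, 14, 13 and 6 peaks. Peaks were sparser in the last section, where the longest stretch without a peak, of 1892 bases, began 22138 bases after the gene start.

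Nop56, the partner of Nop58 in the C/D snoRNP, had 8 peaks over 4.95 kb of chromosome 2 (130274367 to 130279313, plus strand), or 1.62 per kb. They covered 35.9% of the gene. Its rank by number of peaks was 87th among 4898 genes of like length, of which 11.7% (572) held a peak. The first 1101 bases of the gene held none, and peaks lay from there to 420 bases before the end. Its end overlaps that of Idh3b, a gene of the citric acid cycle, and none of its 8 peaks had a midpoint in that gene.

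Fbl, which encodes the methyltransferase of the C/D snoRNP, had 11 peaks over 10.4 kb of chromosome 7 (28168893 to 28179269), or 1.06 per kb, covering 19.8% of the gene. It ranked 251st among 6897 genes of like length, of which 20.8% (1435) held a peak. Its peaks, on the plus strand, began 1128 bases after the lower end of the gene, and the upper 5060 bases held none. Outside that empty stretch the density was 2.07 per kb, close to that of Nop56 outside its own longest empty stretch (2.08). Fbl hosts no snoRNA in the gene table, so none of its 11 peaks lies over an annotated one.

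**Figure D2:**
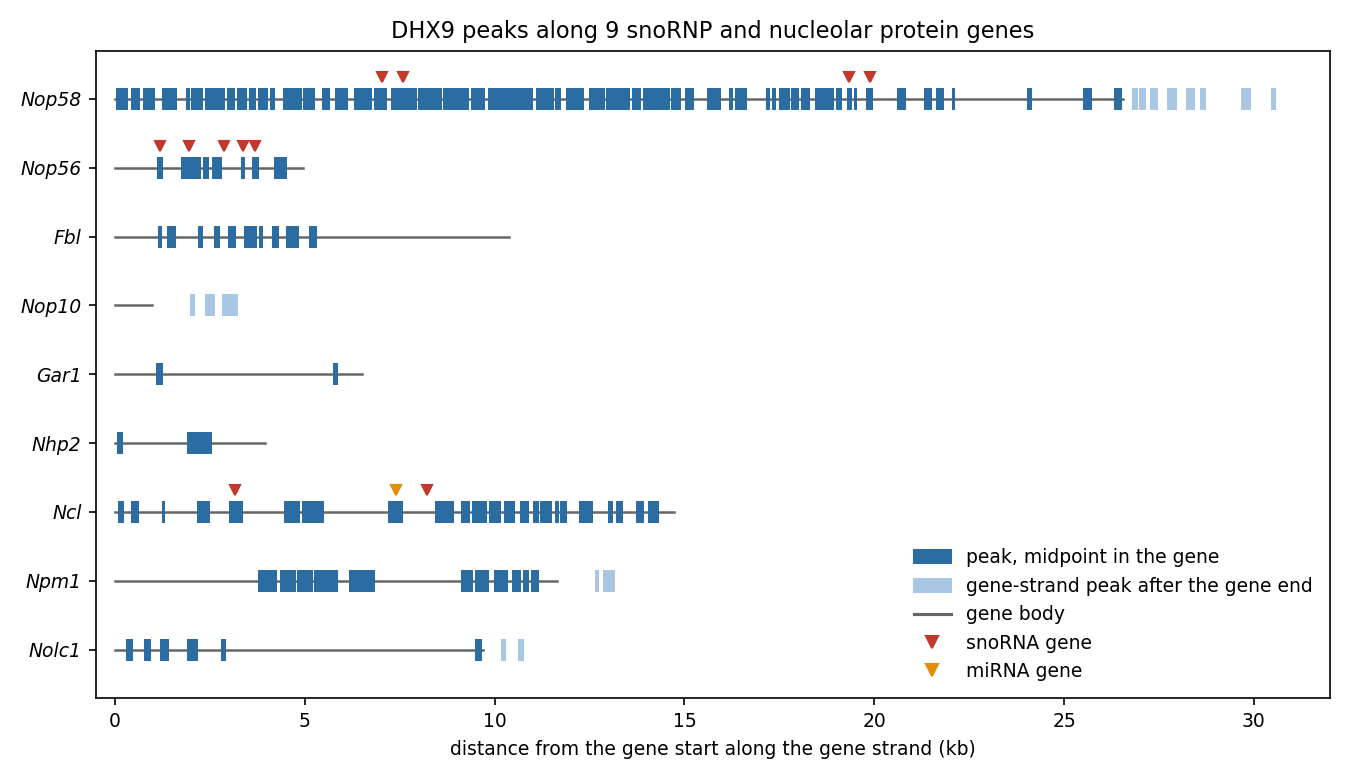
Position of DHX9 peaks (dark blocks, drawn to scale) along the 9 genes, with the distance from the gene start along the gene strand in kb on the horizontal axis; light blocks are gene-strand peaks in the 5 kb after the gene end, and triangles mark snoRNA genes and the miRNA gene. Peaks fill most of Nop58, cover 1 side of Fbl and stand in 2 blocks in Npm1, and Nop10 has peaks after its end and none inside.

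The 3 genes for core proteins of box H/ACA snoRNPs held far fewer peaks, 5 in 11.4 kb, and peaks covered 9.51% of their bases. Nhp2, an RNA-binding protein of the H/ACA core, had 3 peaks over 3.95 kb of chromosome 11 (51619773 to 51623718, plus strand), or 0.76 per kb. The first began 52 bases after the gene start, and the other 2 were adjacent, 1900 bases and more from the start. Nhp2 ranked 168th among 4291 genes of like length, of which 9.86% held a peak. Gar1, a glycine- and arginine-rich H/ACA protein, had 2 peaks over 6.5 kb of chromosome 3 (129824912 to 129831407, minus strand), or 0.308 per kb. These were 4488 bases apart, 1 near each end of the gene, and were narrow, with widths of 111 and 176 bases. Gar1 ranked 518th among 5710 genes of like length, of which 864 held a peak. Nop10, the smallest of the core proteins, is encoded by a gene of 0.973 kb on chromosome 2 (112261926 to 112262898, plus strand) that held no peak. Of the 2419 genes of like length, 2.11% held one. The H/ACA genes are short, and per kb they had 0.438 peaks, against 1.98 for the C/D genes. Without Nop58, the C/D genes Nop56 and Fbl alone had 1.62 and 1.06 per kb, still above the 0.76 of Nhp2, the densest of the 3 H/ACA genes. That order does not extend to the core genes outside these 9. Snu13 of the C/D core held no peak, and Dkc1 of the H/ACA core had 0.646 per kb. With 3 genes in each class and 1 peak list, the difference between the classes was not tested.

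The 3 nucleolar protein genes held 40 peaks in 36.1 kb, covering 33.5% of their bases. Ncl had 23 over 14.7 kb of chromosome 1 (86344719 to 86359455, minus strand), or 1.56 per kb, covering 44.3% of the gene. It ranked 141st among 7709 genes of like length, of which 25% held a peak. Its peaks ran from 76 bases after the gene start to 399 bases before the end. Its 5 equal sections held 4, 3, 2, 8 and 6, so that Ncl had more peaks in its last section than in its first, and Nop58 fewer. Its median peak width was 288 bases, and the median over all peaks in the list was 196.

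Npm1 had 11 peaks over 11.6 kb of chromosome 11 (33152498 to 33164142), or 0.945 per kb. It ranked 307th among 7186 genes of like length, of which 21.8% (1570) held a peak. Its peaks, on the minus strand, were the widest of these genes, with a median of 377 bases and a range of 147 to 682, and covered 37.4% of the gene. Fbl held the same number of peaks, of a median of 182 bases, and 19.8% of it was covered. Read along the minus strand, the first 3757 bases of Npm1 held no peak, and the last 20% of the gene held 5 of the 11. Nolc1 had 6 peaks over 9.7 kb of chromosome 19 (46075847 to 46085543, plus strand), or 0.619 per kb. It ranked 482nd among 6747 genes of like length, of which 20.1% (1353) held a peak. Of its peaks, 5 lay within the first 2912 bases, followed by 6564 bases without a peak and 1 peak that ended 44 bases before the gene end.

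**Figure D3:**
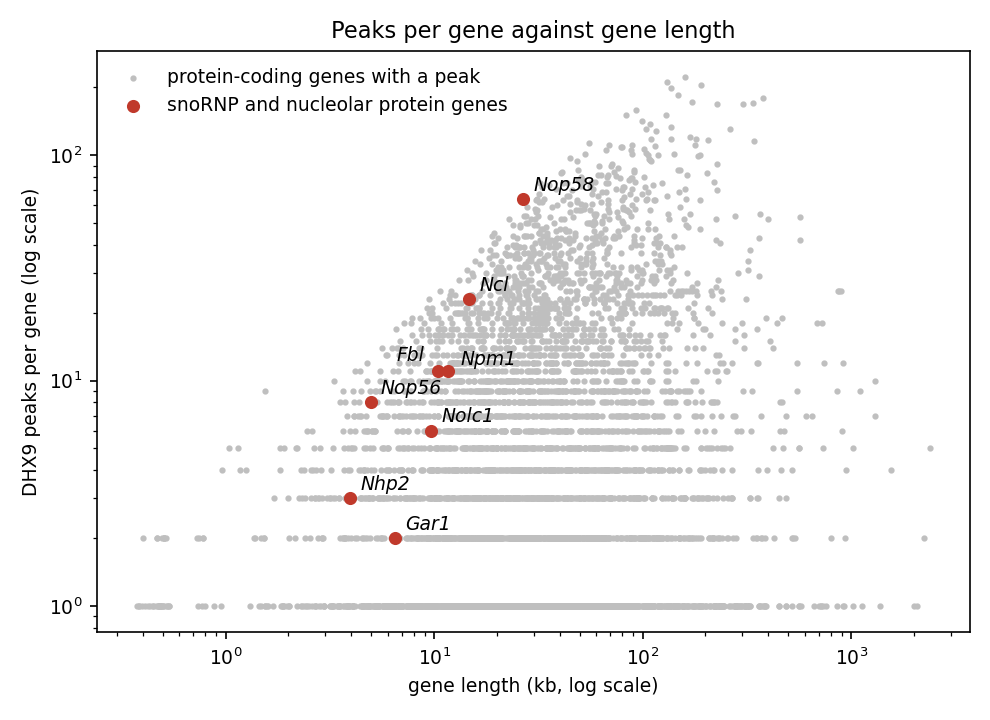
Number of DHX9 peaks against gene length, both on log scales, for 4989 protein-coding genes with a peak (grey) and 8 of the 9 genes described here (red); Nop10 has no peak and is not drawn. Nop58, with 64 peaks in 26.6 kb, lies near the upper edge of genes of its length, and Gar1 lies low, with 2 in 6.5 kb.

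Every peak in these genes lay on 1 strand per gene. For the 7 genes whose strand the promoter table gives, 106 of 106 peaks lay on the gene strand (100%, 95% Wilson interval 96.5 to 100%), and a count of 0 allows up to 2.83% on the other strand. In Fbl and Npm1 the direction was read from the peaks themselves, and all 11 peaks of each were on 1 strand. Over the 4051 bound protein-coding genes with a known strand, 98% of 46160 peaks lay on the gene strand (97.9 to 98.1%), and 99.2% did so in the 2199 of them that overlap no other gene (99.1 to 99.3%). No peak of these 9 genes was therefore antisense to its gene as far as strand was known.

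Along the 9 genes pooled, the first 20% of the gene body held 29 of 128 peaks (22.7%) and the last 20% held 20 (15.6%). Over 45231 gene-strand peaks of bound protein-coding genes with a known strand, the first 20% of the gene held 27% and the last 20% held 12.2%. Nop58 gives 64 of the 128. Without it, the first 20% of the gene held 11 and the last 20% held 14 of the other 64, so that the order turned round. Npm1 gave 5 of those 14 and none of the 11, and Fbl gave 2 of the 11 and none of the 14. The direction of both was read from their peaks, so this turn rests in part on Npm1 and its assumed direction. The widths of the 128 peaks had a median of 222 bases with quartiles of 176 and 345, and those of all 59563 peaks a median of 196 with quartiles of 146 and 268. Without Nop58 the median was 214.

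Of the 9 genes, 3 host snoRNA genes: Nop58 hosts 4, Nop56 hosts 5 and Ncl hosts 2. A peak overlapped 9 of these 11 snoRNA genes by at least 1 base, and each of the 9 was covered over its whole length. Across all protein-coding genes with a peak, 49% of the snoRNA genes inside them were overlapped (140 of 286). In Nop58 a single peak covered each of Snord70 (53 bases), LOC115485825 (84 bases), Gm26287 (81 bases) and Snord11 (63 bases), and those peaks were 341, 304, 138 and 186 bases wide. Snord70 lies on chr1:59691958-59692010 and Snord11 on chr1:59704808-59704870, and both are box C/D snoRNAs by name. A peak midpoint lay inside each of them except LOC115485825.

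In Nop56 a peak covered Snord110, LOC115489609, LOC115489601 and Snord57, again with the midpoint of a peak inside each. These 4 peaks were 170, 461, 111 and 187 bases wide. The exception was LOC115489632 (86 bases, chr2:130277195-130277280), which began 15 bases after the last base of the nearest peak. In Ncl a peak of 369 bases covered Snord82 (68 bases, chr1:86356260-86356327) with its midpoint inside. The other snoRNA gene of Ncl, Snora75, a box H/ACA snoRNA by name (116 bases, chr1:86351170-86351285), held no peak, and the nearest peak was 151 bases away. The miRNA gene of Ncl shown above lies between these 2 snoRNA genes.

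Peaks over snoRNA genes were a small share of the peaks in these hosts, except in Nop56. Of the 8 peaks of Nop56, 4 overlapped a snoRNA gene (50%, 95% Wilson interval 21.5 to 78.5%), while snoRNA genes make up 8.31% of its bases. In Nop58 it was 4 of 64 (6.25%, 2.46 to 15%), with 1.06% of the bases, and in Ncl 1 of 23 (4.35%, 0.772 to 21%), with 1.25% of the bases. The share of peaks and the share of bases are unlike measures. A peak wider than a snoRNA gene can reach it from outside, which raises the share of peaks alone. Over the 9 genes, 9 of 128 peaks overlapped a snoRNA gene (7.03%, 3.74 to 12.8%) and 119 did not. Counting only peaks with their midpoint inside a snoRNA gene gave 8 of 128 (6.25%, 3.2 to 11.8%). The number of peaks in these genes therefore rests mainly on RNA outside the annotated snoRNA genes.

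The share of bases under peaks was then compared within each host. In Nop58 peaks covered 100% of the 281 snoRNA bases and 62.6% of the other 26269 bases. In Nop56 they covered 79.1% of 411 snoRNA bases and 31.9% of the other 4536. In Ncl the order was the other way round, with 37% of 184 snoRNA bases and 44.4% of the rest. The rest of Ncl includes the 147 bases of Gm24148, classed as a miRNA, all of them under a peak. The order in Ncl was not recomputed with Gm24148 counted as a snoRNA gene. Over the 3 hosts together it was 76.9% of snoRNA bases and 53.7% of the rest. In the 203 snoRNA hosts among protein-coding genes that held a peak, 41.4% of snoRNA bases and 3.03% of the other bases were covered. By these pooled shares, the 3 hosts differed from bound hosts at large mostly in how much of the gene outside the snoRNAs lay under peaks. Pooling over bases gives most weight to long hosts, such as Cntnap2, with 2 peaks in 2241333 bases. Coverage was not compared with that of bound hosts of like length. Since 63% of all bases of Nop58 lay under a peak, most positions in that gene overlap one, snoRNA or not.

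**Figure D4:**
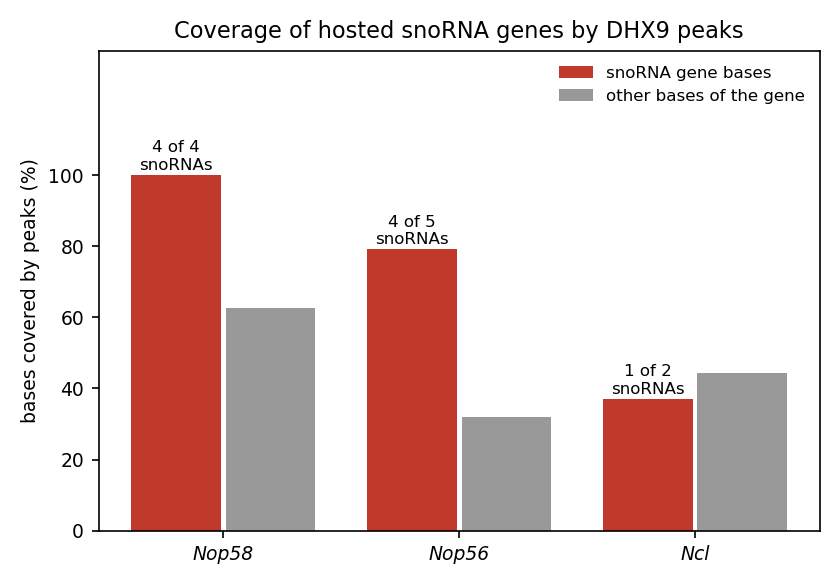
Percent of bases covered by peaks in snoRNA genes (red) and in the rest of the host gene (grey) for Nop58, Nop56 and Ncl, with the number of snoRNA genes overlapped by a peak written above. SnoRNA genes are covered more than the rest in Nop58 (100% and 62.6%) and Nop56 (79.1% and 31.9%), and less in Ncl (37% and 44.4%). Gm24148 in Ncl, classed as a miRNA and wholly under a peak, is counted with the rest.

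The genes that host snoRNAs were denser in peaks than those that do not. The 3 hosts had 95 peaks in 46.2 kb, or 2.05 per kb, and the 6 other genes had 33 peaks in 43.1 kb, or 0.765 per kb. Nop56 and Ncl without Nop58 had 31 peaks in 19.7 kb, or 1.57 per kb. After merging peaks within 50 bases, the 3 hosts had 1.3 per kb and the 6 other genes 0.649. In Nop56, 4 of its 8 peaks were those over snoRNA genes. These groups were formed after the values were seen, and the difference between them was not tested. Of 372 protein-coding genes that hold a snoRNA gene, 54.6% held a peak (203), and their median density was 0.299 per kb among those with a peak. Among these 203, Nop58 had rank 2 by density and rank 5 by number of peaks. Of the 46 bound hosts with at least 2 snoRNA genes, 21 had each of them overlapped, as Nop58 did, 8 had none overlapped, and the others, Nop56 and Ncl among them, lay between. The other hosts with the most snoRNA genes overlapped were the ribosomal protein genes Rpl4 (5 of 5, 1.74 peaks per kb), Rpl13a (4 of 4, 1.26 per kb) and Rpl7a (4 of 4, 1.52 per kb), and Eif4a2, a translation initiation helicase gene (4 of 5, 2.1 per kb).

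Beyond the annotated ends, 4 of the 9 genes were followed by peaks on the gene strand that lay in no annotated gene. Nop58 had 8 such peaks in the 5 kb after its end, the first starting 229 bases after it and the last at 3911 bases. Nop10, with no peak inside, had 4, starting 1000 to 1832 bases after its end. Npm1 had 2, the nearer starting 989 bases after the end as read along the minus strand, and Nolc1 had 2, starting 473 and 915 bases after its end. The other 5 genes had none. Of 4051 bound protein-coding genes with a known strand, 4.74% (192) had at least 1 such peak after the end, with small RNA genes left out of the annotation. Of 13441 protein-coding genes with a known strand and no peak inside, the group that holds Nop10, 0.379% (51) had one. In the 5 kb before the start, Nolc1 had 3 gene-strand peaks in no gene and the other 8 genes had none. The share of bound genes with such a peak before the start was 1.95%. Whether these peaks belong to the transcripts of these genes or to other RNAs cannot be told apart from the list.

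Genes for other proteins of the same particles and of the nucleolus were also counted, beside the 22.8% of all protein-coding genes that held a peak. In a list of 16 genes for snoRNP partners and assembly factors, 10 (62.5%) held a peak, with 37 peaks in all and a median of 1. Dkc1, the pseudouridine synthase of H/ACA snoRNPs, held 9 peaks in 13.9 kb of chromosome X, or 0.646 per kb, which is in the range of Nhp2. Coil, which encodes coilin of the Cajal body, also held 9, and Nufip1, a C/D snoRNP assembly factor, and Parn, a ribonuclease that trims RNA tails, held 5 each. The remaining C/D core protein, Snu13, held none in 6.25 kb, so that 3 of the 4 C/D core genes and 3 of the 4 H/ACA core genes held a peak. In a list of 34 genes for nucleolar ribosome assembly factors, 24 (70.6%) held a peak, with 300 peaks in all and a median of 2. The most were in Nvl, an ATPase of large subunit assembly (61 peaks, 1.07 per kb), Wdr43, a protein of the small subunit processome (46, 1.07 per kb), Rrp1b (32, 1.2 per kb) and Emg1, a methyltransferase of 18S ribosomal RNA (19, 2.43 per kb). Emg1 thus reached the density of Nop58 in a gene of 7.82 kb, while the median density among bound genes of that list was 0.485 per kb. No peak was found in 10 genes of the second list and 6 of the first.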

How the data were processed

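DHX9 FLASH peaks in mouse ES cells were analysed (2 DHX9 and 2 IgG samples). Per the file's source column the authors called peaks with PEAKachu; the version and parameters were not given in the sources used here. The submitters' processing notes name Bowtie2 2.2.6 and the builds hg19 and mm10, and mm10 was taken for this list, from its chromosome names. The deposited values are the first base, last base and strand of each peak, with no count, fold or p-value. Genes came from RefSeq's table of GRCm38.p6, gene strands and promoter sequences from its promoter table, and miRNA sequences from its miRNA table. Exons, introns, genome and snoRNA sequences were not used here. Small RNA genes counted as hosted when they lay wholly inside a gene. Intervals are 95% Wilson intervals. Genes of like length are those of 0.5 to 2 times the length. The 9 genes, the lists, and the rule that names each of the 9, each hosted snoRNA and the 4 leading genes of each list were chosen with earlier results of these data known; flanks, promoters, motifs and role groups were added after the values were seen, and Snu13 was named after its value was seen. With simulated peaks placed in real genes, the counting functions gave the same counts as a direct recount over 500 genes. Only part of those genes had been given peaks. Python 3.11.15, numpy 2.4.6, pandas 2.3.3 and scipy 1.17.1 were used.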

Additional observations from a re-analysis of the deposited data

How the results depend on the processing

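Of 27 recomputed answers to the comparisons, 23 stayed within 1.5 times of a count or within the interval of a share. The other 4 were as follows. Among peaks 196 bases or wider (the median), the 9 genes held 84 peaks, 4 of their snoRNA genes were overlapped, and 6 of the 16 snoRNP partner genes held a peak. With at least 3 peaks per gene, 4 of those 16 did, against 14.8% of all protein-coding genes. These settings count fewer peaks by construction. For the wide peaks no share over all protein-coding genes or all hosted snoRNA genes is given. Whether those counts lie above such a share therefore cannot be read from them. For single genes, 7 of 63 recomputed values moved by over 1.5 times, among them Nop58, with 35 peaks and 1.32 per kb after merging within 50 bases, and Gar1, with no peak of the median width. A stricter threshold could not be set without a peak score, and no replicate could be left out. No paired analysis was possible because the list carries no value per replicate. The alternatives for strand, position and width were chosen after seeing the data. Depth is unknown, so that a gene without a peak, such as Nop10, is not shown to be unbound.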
